A study of Mus musculus with 15 samples.

Results

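Mettl5-/- (knockout, KO) embryonic stem (ES) cells were compared with wild type (WT) ES cells in undifferentiated culture at day 0. Genes were included where 2 or more of the 5 ES cell libraries reached an FPKM of 1, which left 11216 of the 18762 genes in the deposited table. FPKM is a count of sequenced fragments divided by transcript length and by the size of the library. The KO group held 3 libraries, KO replicates 1 to 3, and the WT group held 2, of which replicate 1 is titled Ctr and replicate 2 is titled WT. All 5 were mouse ES cells of strain C57BL/6N and were untreated. The same named samples were also measured as embryoid bodies (EBs), aggregates kept for 6 days without LIF on dishes that prevent attachment, and after 6 days in N2B27 medium, which is used for neural differentiation. Those cultures had 3 KO and 2 WT libraries each and enter here only where an ES cell result was looked up in them.

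METTL5 methylates an adenosine in the ribosomal RNA of the small subunit, giving N6-methyladenosine (m6A), and it needs the small protein TRMT112 as a stabilising partner. TRMT112 also partners with other methyltransferases that act on ribosomal RNA, transfer RNA and proteins. Mouse ES cells keep a pluripotent state through the transcription factors OCT4 (Pou5f1), SOX2 and NANOG together with a set of naive factors such as KLF4 and ESRRB. A small share of cells in an ES culture passes through a state that expresses genes of the embryo's two-cell stage, such as the Zscan4 family.

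Nothing in the labels says whether the libraries of a genotype came from separate clones, cultures or animals, nor which part of Mettl5 was deleted. The p-values therefore reflect only how much these 5 libraries vary, and that variation may be technical. Markers of the labelled cell type were high in every library: the 8 ES cell markers summed to 4040 to 4180 FPKM in KO and 3830 to 4020 FPKM in WT, and none was below 150.99 FPKM. The 4 trophoblast markers summed to 0.27 to 0.35 FPKM in KO and 0.3 to 0.36 in WT, and the 4 mesoderm markers to 0.97 to 0.99 in KO and 1.0 to 1.45 in WT. FPKM summed to 497698 to 514409 in the KO libraries and to 490020 and 515427 in the WT libraries. Fragment totals are not given in the sources used here, so no counting interval is attached to any value. Genes at the edge of the rule were low: the 171 genes that reached an FPKM of 1 in exactly 2 libraries had a median level of 0.944 FPKM, and the 202 genes that reached it in 1 library and were left out had 0.816.

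Mettl5 itself (Entrez gene 75422) was lower in all KO libraries, and it was the gene with the smallest p-value of all. It had 10.65, 7.21 and 9.1 FPKM in the KO libraries, against 20.85 and 19.03 FPKM in the WT libraries. The groups did not overlap, and every KO library still held some transcript. The difference was -1.08 ± 0.13 (SE) on the log2(FPKM + 1) scale, with a 95% interval of -1.38 to -0.78 and an adjusted p of 0.224 in limma. That value missed the threshold of 0.05. Without KO replicate 1 the difference was -1.20, with an adjusted p of 0.0424. Mettl5 was also lower in the other cultures, with 9.07, 5.22 and 5.41 FPKM in KO EBs against 17.7 and 19.79 in WT EBs, and with 3.91, 6.41 and 3.29 FPKM in KO against 8.37 and 8.65 in WT in N2B27. The difference was -1.42 ± 0.21 in EBs (SE; adjusted p = 0.0796) and -0.82 ± 0.22 in N2B27 (adjusted p = 0.625).

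Mettl5 lies on the minus strand of chromosome 2, at chr2:69871195-69886634 in GRCm38.p6. Its last part overlaps the end of Ssb, which encodes the La protein that binds new RNA polymerase III transcripts and lies on the plus strand. Their spans share 652 bases, of which 169 are exonic in both genes, or 6.93% of the exonic bases of Mettl5. Whether fragments were assigned by strand is not given in the sources used here, so fragments from the shared bases cannot be told apart. Ssb had 151.13, 151.56 and 162.85 FPKM in the KO libraries, against 167.42 and 149.97 FPKM in the WT libraries. The remaining neighbours on that side, Klhl23, Phospho2 and Ppig, differed by 0.02, 0.06 and -0.03 on the log2 scale. Beyond the start of Mettl5, the ubiquitin ligase gene Ubr3 had 14.53, 15.91 and 15.62 FPKM in KO and 15.79 and 13.4 FPKM in WT. Gorasp2, Tlk1 and Mettl8 differed by -0.01, -0.08 and -0.15. For all 8 of these neighbours the KO and WT libraries overlapped, unlike for Mettl5.

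The 250 bases before the start of Mettl5 in the RefSeq promoter table (GRCm38.p6, minus strand, chr2:69885616-69885865) are shown because this is the targeted gene and its transcript remained in each KO library. The annotated span of the gene reaches further, to 69886634, so other transcripts may start upstream. Capitals mark the single match to CTTCCG, whose reverse complement is a core recognised by ETS family factors, 111 bases before the start.
Mettl5: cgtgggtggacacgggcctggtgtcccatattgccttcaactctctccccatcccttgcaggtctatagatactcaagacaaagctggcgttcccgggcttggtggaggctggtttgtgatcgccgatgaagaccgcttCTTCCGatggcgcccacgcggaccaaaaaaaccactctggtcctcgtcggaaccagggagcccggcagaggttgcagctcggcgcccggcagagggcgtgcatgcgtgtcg
That motif, searched on both strands, was found in 13.8% of the 27025 windows of the same table. The window held no TATA box letters (TATAAA), which 13.0% of all windows held. Nor did it hold the letters CCAAT, found in 34.5% of windows. The GC box letters GGGCGG were also absent from it and were found in 32.9%. The matches describe the letters only.

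Across the transcriptome, KO and WT ES cells were close to each other. No gene passed an adjusted p of 0.05 in limma (0% of 11216), and the smallest adjusted p was the 0.224 of Mettl5. At an unadjusted p under 0.05 there were 526 genes higher in KO (4.69%) and 373 lower (3.33%), 899 in all, where 561 would be counted if no gene differed. All KO libraries lay above both WT libraries for 1487 genes (13.3%) and below both for 1275 (11.4%). The median difference over all genes was 0.002 with a median SE of 0.0851, and 90.8% of the genes differed by between -0.2 and 0.2 on the log2 scale. For 11144 genes (99.4%) the 95% interval of the difference lay within 2-fold of FPKM + 1 in either direction. For 10866 (96.9%) it lay within 1.5-fold of FPKM + 1. These intervals are for single genes and are not adjusted for their number.

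Precision depended on the level. Among the 1262 genes with a mean under 2 FPKM the median SE was 0.119 and 97.9% had an interval within 2-fold, while among the 1687 genes at 50 FPKM or more the median SE was 0.0631 and 99.9% did. The direction of the genes whose libraries did not overlap also varied with the level. In the lowest class 16.1% were higher and 8.24% lower in KO, and in the highest class 6.64% were higher and 16.8% lower. Chromosomes had similar medians, between -0.013 (X) and 0.022 (14 and 19) over the autosomes and X.

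**Figure D1:**
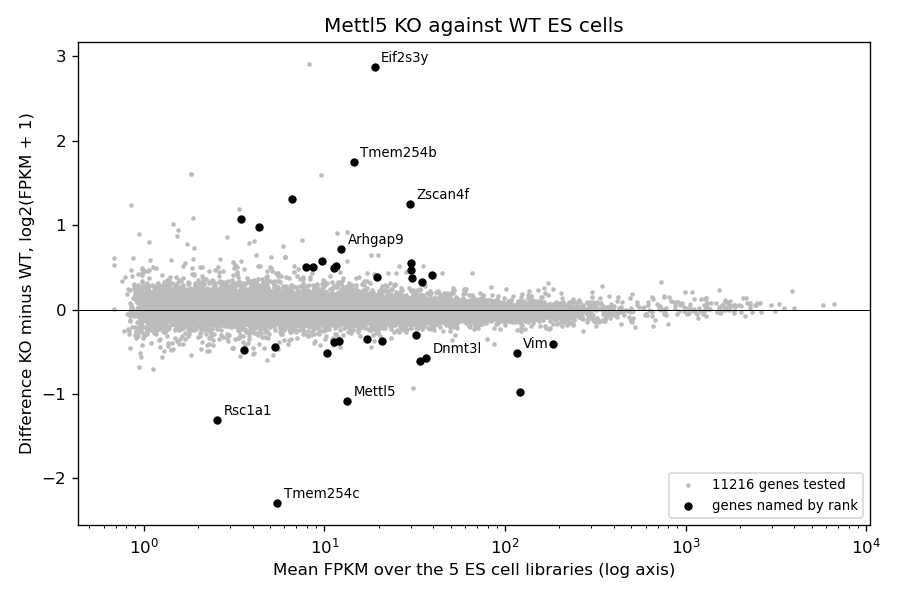
Difference of KO minus WT ES cells on the log2(FPKM + 1) scale (vertical axis) against the mean FPKM of the 5 libraries (horizontal log axis), 1 point for each of the 11216 genes, with the genes named by rank in black. Nearly all points lie close to 0, and among the labelled genes Eif2s3y is at 2.87, Tmem254b at 1.75 and Zscan4f at 1.25, while Tmem254c is at -2.29, Rsc1a1 at -1.31 and Mettl5 at -1.08.

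The spread between libraries of one genotype was about as large as that between genotypes. The median absolute difference between a pair of libraries was 0.0783 to 0.0934 on the log2 scale within KO, 0.0866 to 0.118 between KO and WT, and 0.111 within WT. Between 21 and 24 genes were at least 2-fold apart in FPKM + 1 within KO pairs, 19 to 46 between KO and WT, and 35 within WT. The KO libraries were thus closer to each other than the WT libraries were. The genes farthest apart between the WT libraries, given as replicate 2 minus replicate 1, were Eif2s3y (-3.37), Tmem254c (3.14), Tmem254b (-3.12) and Gm4340 (-2.97).

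The pluripotency factors had much the same level in both genotypes. Pou5f1 had 980.13, 951.48 and 997.51 FPKM in KO, against 926.39 and 1054.27 FPKM in WT. Nanog had 381.69, 388.32 and 376.17 FPKM in KO, against 376.63 and 381.26 FPKM in WT. For both genes the libraries overlapped, and the 95% intervals were -0.19 to 0.15 for Pou5f1 and -0.11 to 0.14 for Nanog. Sox2 had 310.32, 318.93 and 314.76 FPKM in KO, against 282.09 and 287.46 FPKM in WT, and Klf4 had 178.34, 164.32 and 181.73 FPKM in KO, against 150.99 and 154.59 FPKM in WT. All KO libraries were above both WT libraries for these factors, by 0.14 ± 0.05 for Sox2 (SE; adjusted p = 0.555) and 0.19 ± 0.06 for Klf4 (adjusted p = 0.461).

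KO libraries lay above both WT libraries for 13.3% of all genes tested and below both for 11.4%. Among the 20 naive pluripotency genes, 5 had all KO libraries above both WT libraries and 2 had them below. The list's median difference was 0.056 against 0.002 over all genes. The 5 were Klf4, Klf5, Esrrb, Prdm14 and Dppa5a. Klf5, a KLF factor of the naive network, had 191.41, 179.13 and 217.53 FPKM in KO, against 174.29 and 155.27 in WT (0.25 ± 0.09, SE). Gbx2, a STAT3 target, went the other way, with 74.21, 60.93 and 81.03 FPKM in KO against 86.23 and 96.15 in WT (-0.34 ± 0.11). Without WT replicate 2 the median of the list was -0.015. Of the 17 core pluripotency genes, 1 was higher and 3 were lower without overlap (5.88% and 17.6%), with a median of -0.028.

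The largest difference in that core list was in Dnmt3l, a catalytically inactive cofactor of the de novo DNA methyltransferases. Dnmt3l had 29.91, 28.89 and 32.15 FPKM in KO, against 52.84 and 39.04 FPKM in WT. All KO libraries were lower, by -0.57 ± 0.11 (adjusted p = 0.27), with the WT libraries far apart from each other. The methyltransferases it works with were lower as well: Dnmt3a had 22.54, 24.71 and 22.66 FPKM in KO against 27.62 and 27.9 in WT, and Dnmt3b had 25.89, 23.55 and 24.07 FPKM in KO against 31.97 and 26.4 in WT. Both belong to the 16 genes of the formative and primed list, whose median was -0.052. Of the 16, 2 were higher and 4 lower without overlap, against 13.3% and 11.4% of all genes tested. The other lower members were Lef1, a WNT pathway transcription factor (-0.47 ± 0.10), and Sox3 (-0.31 ± 0.10), and the higher ones were Fgf15 (0.27 ± 0.08) and Sox4 (0.07 ± 0.07). None passed the adjusted threshold.

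Of all genes tested, 13.3% were higher and 11.4% lower without overlap. Among the 15 LIF and STAT3 response genes 4 were higher and 1 was lower (26.7% and 6.67%). Their median was 0.074, and 0.02 without WT replicate 1. Pim1, a kinase induced by STAT3, had 71.21, 62.18 and 61.08 FPKM in KO, against 54.18 and 54.84 FPKM in WT. Of the 17 FGF and ERK response genes none was higher and 5 were lower (29.4%, median -0.083): Egr1, Dusp6, Spry2, Fgf4 and Ier3. Egr1, an immediate early transcription factor, had 4.51, 4.16 and 4.01 FPKM in KO, against 7.87 and 5.47 FPKM in WT (-0.54 ± 0.13). Spry2, a feedback inhibitor of the pathway, had 66.37, 64.46 and 67.69 FPKM in KO, against 69.68 and 75.68 in WT. In the 15 BMP and Nodal response genes 4 were higher and 1 was lower (26.7% and 6.67%). Their median was 0.102, and 0.022 without WT replicate 1. Id3, an inhibitor of basic helix-loop-helix factors, had 44.22, 40.44 and 35.6 FPKM in KO, against 25.34 and 29.86 FPKM in WT (0.52 ± 0.10, adjusted p = 0.239). Its relatives Id1 and Id2 differed by -0.23 ± 0.12 and -0.20 ± 0.10, so the Id genes did not share a direction. In the 12 WNT response genes, 4 were higher and 1, Lef1, was lower without overlap (33.3% and 8.33%, median 0.018).

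**Figure D2:**
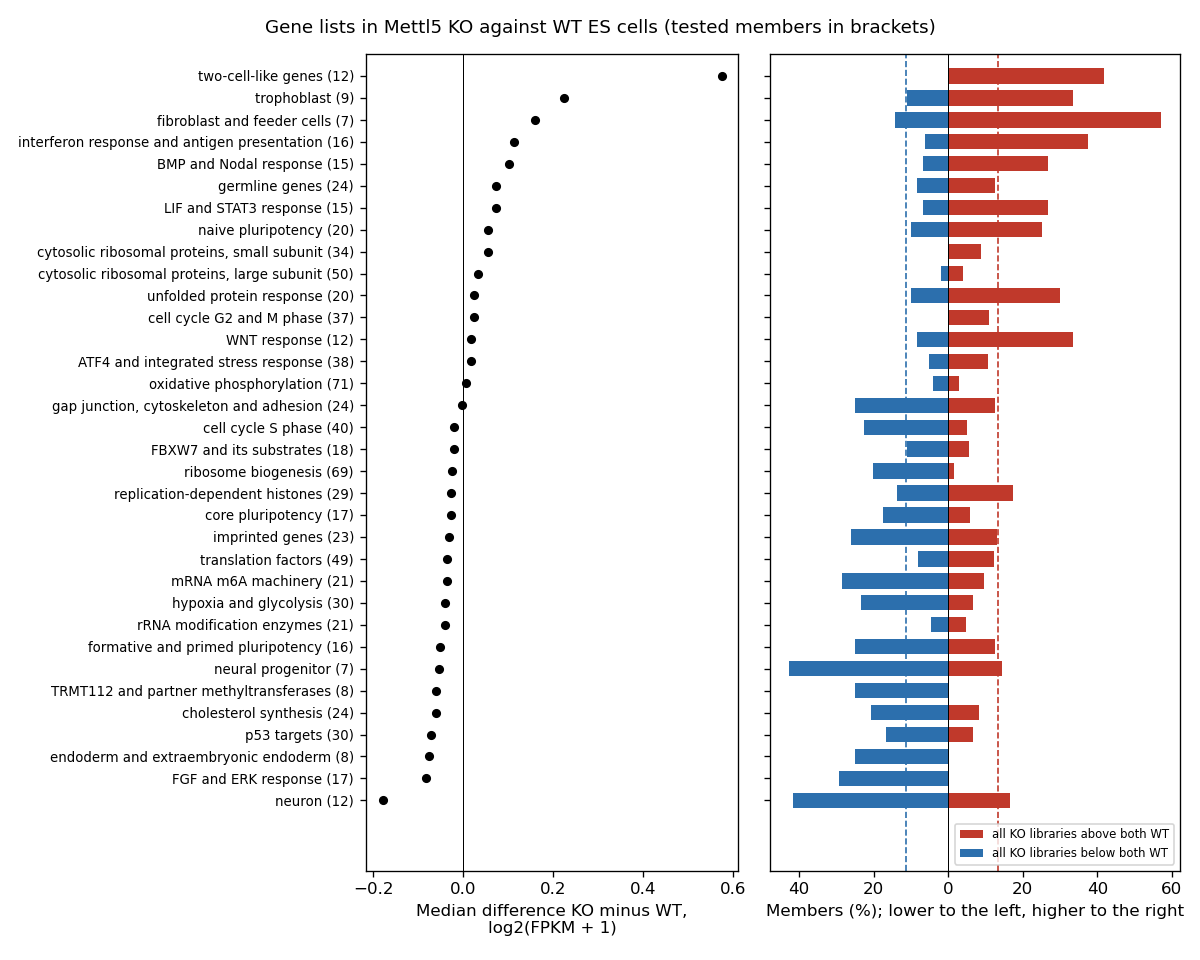
Median difference KO minus WT of the tested members of each of 34 gene lists (left, log2(FPKM + 1) scale) and the percentage of members whose KO libraries all lay above (red) or all below (blue) both WT libraries (right), with dashed lines at 13.3% and 11.4%, the shares among all genes. The two-cell-like list has the highest median (0.574) and the neuron list the lowest (-0.179).

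Partners and relatives of METTL5 differed little. Trmt112 had 121.89, 107.51 and 112.24 FPKM in KO, against 109.29 and 128.35 FPKM in WT, with overlapping libraries and a 95% interval of -0.24 to 0.13. Of the 8 measured genes of TRMT112 and its partner methyltransferases, 2 were lower without overlap, Mettl5 and Thumpd2, and none was higher. Over all genes 11.4% were lower and 13.3% higher. Thumpd2 had 4.21, 4.06 and 3.8 FPKM in KO, against 5.22 and 4.75 FPKM in WT (-0.25 ± 0.09). Wbscr22 (the 18S rRNA methyltransferase BUD23), Trmt11, Thumpd3, Alkbh8 and N6amt1 had overlapping libraries and differed by -0.16 to 0.16. Zcchc4, the enzyme that places m6A on the ribosomal RNA of the large subunit, had 11.1, 12.49 and 12.72 FPKM in KO and 13.21 and 11.84 FPKM in WT. In the 21 rRNA modification enzymes 1 gene was higher and 1 lower without overlap (median -0.041).

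Of the 21 genes that write, remove or read m6A on messenger RNA, 6 were lower and 2 were higher without overlap (28.6% and 9.52%, median -0.037). Over all genes 11.4% were lower and 13.3% higher. These shares were 12.7% and 12.5% at a mean of 10 to 50 FPKM, and 16.8% and 6.64% at 50 or more. Mettl16, an m6A methyltransferase of U6 small nuclear RNA and of Mat2a messenger RNA, had 29.87, 28.86 and 28.93 FPKM in KO, against 37.27 and 35.47 FPKM in WT. Its difference was -0.31 ± 0.06 (adjusted p = 0.239), the largest on this list. The writer core was level, with Mettl3 at 32.67, 32.06 and 30.49 FPKM in KO and 29.76 and 34.43 FPKM in WT, and Mettl14 at 13.41, 14.87 and 14.44 FPKM in KO and 14.22 and 14.24 FPKM in WT. Hnrnpa2b1, an RNA-binding protein described as an m6A reader, was lower by -0.17 ± 0.06, and Igf2bp3 was higher by 0.14 ± 0.06. Each of the other 4 lower members, Rbm15b, Cbll1, Ythdf1 and Pcif1, differed by -0.04 to -0.07.

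Few genes of the ribosome itself had KO libraries on one side of both WT libraries. Of 34 small subunit protein genes, 3 (Rps7, Rps12 and Rps19) were higher without overlap and none was lower, with a median of 0.055, and of 50 large subunit genes 2 were higher and 1 was lower (median 0.032). Small subunit genes summed to 51300, 48500 and 47000 FPKM in KO and to 43700 and 50000 FPKM in WT. KO replicates 2 and 3 lay between the WT libraries and KO replicate 1 above both. Against WT replicate 1 alone, 25 of the 34 small subunit genes were higher in all KO libraries, and against WT replicate 2 alone 3 were higher and 11 lower. Over all genes, 26.9% were higher and 31.5% lower in all KO libraries than WT replicate 1. For WT replicate 2 these shares were 32.3% and 24.8%, and against both WT libraries they were 13.3% and 11.4%. Of the 71 oxidative phosphorylation genes 43 (60.6%) were higher against replicate 1 alone and 53 (74.6%) lower against replicate 2 alone, and 2 were higher and 3 lower against both.

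Of the 69 ribosome biogenesis genes, 14 were lower without overlap (20.3%) and 1, Gnl2, was higher (1.45%). Among all genes tested 11.4% were lower and 13.3% higher, and among those with a mean of 50 FPKM or more 16.8% were lower and 6.64% higher. The differences of the ribosome biogenesis genes were small, with a median of -0.025 and single values between -0.18 and 0.10. Noc2l, a nucleolar protein, had 98.77, 96.32 and 90.23 FPKM in KO, against 103.7 and 112.07 FPKM in WT (-0.18 ± 0.06). Nip7, a factor for pre-rRNA processing, had 49.25, 47.78 and 47.73 FPKM in KO, against 52.09 and 55.18 FPKM in WT (-0.15 ± 0.06). No gene on the list had a 95% interval reaching beyond -0.32. Among 49 translation factors 6 were higher and 4 lower without overlap (median -0.036), and Eef2k, the kinase that inhibits elongation factor 2, was at 3.8, 3.32 and 3.42 FPKM in KO and 2.81 and 2.7 FPKM in WT.

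Stress and growth pathways were also near level. Over all genes tested, 13.3% were higher and 11.4% lower without overlap. For the 38 genes of the ATF4 and integrated stress response, 4 were higher and 2 lower (10.5% and 5.26%, median 0.017). Atf4 itself had 243.08, 240.79 and 228.58 FPKM in KO and 220.49 and 239.41 FPKM in WT. In the unfolded protein response list 6 of 20 genes were higher and 2 lower (median 0.025). Among 30 p53 targets 2 were higher and 5 lower (6.67% and 16.7%, median -0.072). Plk2, a polo-like kinase, was at 7.56, 7.0 and 8.29 FPKM in KO and 10.03 and 10.66 FPKM in WT (-0.40 ± 0.09). Cdkn1a (p21) had 30.66, 27.74 and 30.39 FPKM in KO and 31.09 and 31.42 FPKM in WT. Its libraries did not overlap here (-0.08), in EBs (-0.43) or in N2B27 (-0.36), with KO lower each time. The p53 target Btg2 was likewise lower in all 3 cultures (-0.15, -0.13 and -0.25), as were 0.711% of the genes tested in all 3. Fbxw7, a substrate receptor of a ubiquitin ligase, had 8.38, 9.36 and 10.21 FPKM in KO and 10.04 and 9.45 FPKM in WT, and its target Myc had 69.35, 59.81 and 65.9 FPKM in KO and 66.39 and 71.36 FPKM in WT. Both overlapped. Across the 18 genes of FBXW7 and its substrates 1 was higher, Klf5, and 2 were lower.

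Cell cycle and metabolic lists followed the same pattern of small values. Of all genes tested, 13.3% were higher and 11.4% lower without overlap. Among those with a mean of 50 FPKM or more, 6.64% were higher and 16.8% lower. Of 40 S phase genes 2 were higher and 9 lower (5.0% and 22.5%, median -0.021), with Rfc4, a clamp loader subunit, the farthest at -0.25 ± 0.07. Of 37 G2 and M phase genes 4 were higher (10.8%) and none lower (median 0.025). In the hypoxia and glycolysis list, 2 of 30 genes were higher and 7 lower (6.67% and 23.3%, median -0.04). Slc2a1, the glucose transporter GLUT1, had 210.07, 208.88 and 210.4 FPKM in KO, against 244.48 and 232.28 FPKM in WT (-0.18 ± 0.05). Ldha, lactate dehydrogenase A, had 624.95, 623.23 and 613.87 FPKM in KO, against 713.97 and 706.47 FPKM in WT. Hexokinase Hk1 differed in the opposite direction, with 22.48, 22.02 and 21.76 FPKM in KO, against 18.35 and 18.61 FPKM in WT (0.24 ± 0.06). The lactate transporter Slc16a3 was at 18.41, 19.63 and 17.68 FPKM in KO, against 24.69 and 23.75 FPKM in WT, and Mpc1, of the mitochondrial pyruvate carrier, at 15.1, 15.33 and 15.95 FPKM in KO, against 19.5 and 20.45 FPKM in WT. For each of these genes the groups did not overlap. Of 24 cholesterol synthesis genes 2 were higher and 5 lower (median -0.061).

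Among genes with a mean of at least 2 FPKM and libraries that did not overlap, those with the smallest p-values after Mettl5 differed by less than 2-fold and had an adjusted p of 0.234 to 0.281, so none passed. On the lower side, Vim, the intermediate filament vimentin, had 100.13, 92.65 and 103.45 FPKM in KO, against 130.68 and 152.87 FPKM in WT (-0.51 ± 0.08). Upp1, uridine phosphorylase, had 156.43, 167.44 and 163.49 FPKM in KO, against 199.01 and 234.63 FPKM in WT (-0.41 ± 0.08). The neuronal growth cone proteins Gap43 (9.84, 10.04 and 9.83 FPKM in KO, against 13.05 and 13.51 FPKM in WT) and Crmp1 (9.6, 8.44 and 7.97 FPKM in KO, against 12.2 and 13.3 FPKM in WT) were lower too. Tlcd1, Ap4s1 and BC028528 were lower by -0.38, -0.45 and -0.48. Within these genes the KO libraries lay close together and the WT libraries were farther apart for Vim and Upp1. Ranking by p favours genes with a small spread within groups, so this closeness follows in part from the choice of genes.

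On the higher side, the GTPase activating proteins Sh3bp1 and Arhgap9 were among the first. Sh3bp1 had 33.56, 34.56 and 33.08 FPKM in KO, against 25.07 and 26.38 FPKM in WT (0.38 ± 0.06). Arhgap9 had 16.99, 15.42 and 12.26 FPKM in KO, against 8.15 and 9.02 FPKM in WT (0.72 ± 0.12). Col13a1, a transmembrane collagen, had 9.31, 9.55 and 8.41 FPKM in KO, against 6.03 and 6.13 FPKM in WT (0.51 ± 0.08). Only genes whose libraries did not overlap were ranked, so every KO library being clear of both WT libraries follows from that choice. The glutathione transferase gene Gstm5 was at 13.34, 12.43 and 13.02 FPKM in KO, against 8.24 and 9.58 FPKM in WT, and the beta tubulin gene Tubb2a at 37.76, 33.84 and 30.81 FPKM in KO, against 23.49 and 25 FPKM in WT. Wfdc2, Card19, Dock6, Tmem181a, Dynlt1f and Plac9b were higher by 0.38, 0.58, 0.33, 0.41, 0.55 and 0.50. Dynlt1f, Tmem181a and Plac9b lie among near-identical copies, which share fragments, so their values are uncertain. Summed over copies, the groups overlapped for Dynlt1 (589, 540 and 550 FPKM in KO against 494 and 557 FPKM in WT). They also overlapped for Plac9 (21.7, 20.7 and 21.7 FPKM in KO against 13.9 and 22.2 FPKM in WT). No other Tmem181 gene was in the deposited table, so no sum was made for Tmem181a. It had 42.53, 44.35 and 43.85 FPKM in KO, against 30.03 and 35.03 FPKM in WT.

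**Figure D3:**
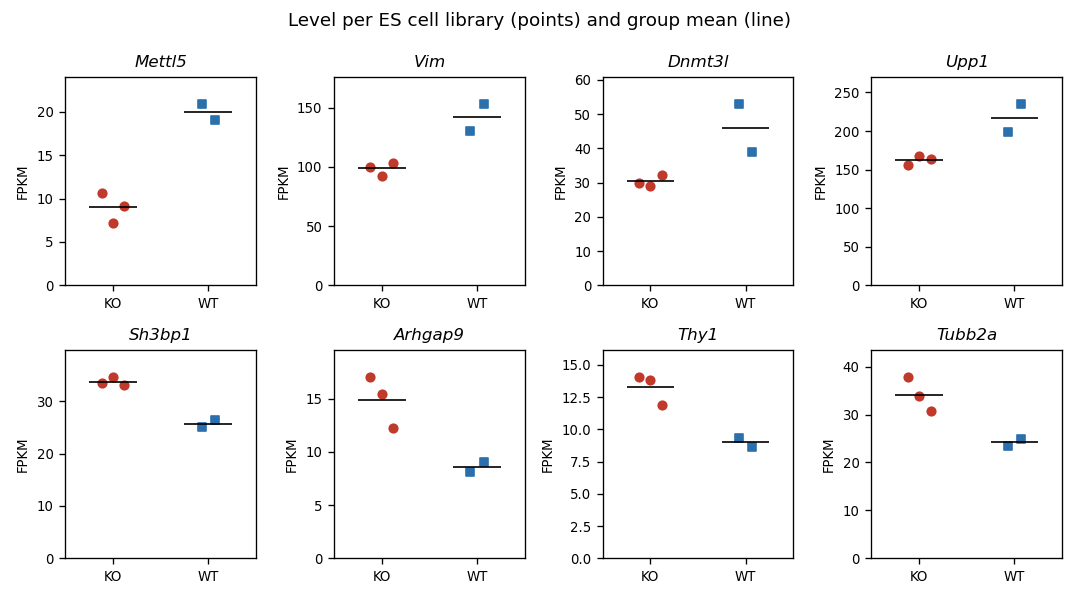
FPKM in each KO (red circles) and WT (blue squares) ES cell library with the group mean as a line, for 4 genes that were lower in KO (top) and 4 that were higher (bottom). The 3 KO points and the 2 WT points do not overlap in any panel, which was a condition of the ranking that named these genes. The vertical axes start at 0.

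Markers of other cell types differed in both directions. Over all genes tested, 13.3% were higher and 11.4% lower without overlap. Thy1, a surface glycoprotein of fibroblasts and other cells, had 14.04, 13.85 and 11.91 FPKM in KO, against 9.37 and 8.61 FPKM in WT (0.51 ± 0.09). The 6 feeder fibroblast markers, of which Thy1 made up most, summed to 14.2 to 16.5 FPKM in KO and 10.6 to 11.4 FPKM in WT, and Postn was at 0 in every library. Their part in the results was not tested. Of the 7 measured genes on the wider fibroblast list 4 were higher (Thy1, Fn1, Mmp2 and Pdgfrb) and 1 lower (Vim), with a median of 0.159, and of 0.071 where an FPKM of 5 was required. In the neuron list 2 of 12 genes were higher and 5 lower (16.7% and 41.7%, median -0.179). Its higher members were Mapt, the protein tau, with 5.89, 4.95 and 4.38 FPKM in KO against 3.28 and 2.46 FPKM in WT, and Elavl3 (0.33 ± 0.08). Lower members besides Gap43 and Crmp1 were Dpysl3 (-0.43 ± 0.11), Neurod1 (-0.31 ± 0.12) and Stmn2 (-0.21 ± 0.06). Among the 9 trophoblast list genes 3 were higher and 1 lower (median 0.225, and 0.132 without WT replicate 2), and Esx1, an X-linked homeobox gene of extraembryonic tissue, had 1.67, 2.76 and 1.84 FPKM in KO, against 0.64 and 0.69 FPKM in WT (0.88 ± 0.15). The laminin genes Lama1 (-0.55 ± 0.12) and Lamb1 (-0.27 ± 0.08) were the 2 of 8 endoderm genes that were lower, and none was higher. The 6 primitive endoderm markers summed to 3.51 to 4.68 FPKM in KO and 4.29 to 5.87 FPKM in WT, which overlap.

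Class I antigen presentation genes were among those with KO libraries above both WT libraries. In the interferon response and antigen presentation list 6 of 16 genes were higher and 1 was lower (37.5% and 6.25%, against 13.3% and 11.4% of all genes). The median was 0.114, and 0.039 without WT replicate 1. H2-D1, a class I histocompatibility heavy chain, had 13.23, 14.58 and 13.64 FPKM in KO, against 11.21 and 10.28 FPKM in WT, and H2-K1 had 11.47, 11.65 and 9.95 FPKM in KO, against 8.64 and 8.27 FPKM in WT. Both differed by 0.34 on the log2 scale. B2m, their light chain, had 16.86, 17.53 and 17.22 FPKM in KO, against 15.43 and 14.39 FPKM in WT. The interferon-induced regulator Irf1 overlapped between genotypes, with a difference of -0.04, and Ddx58 (RIG-I) was the lower gene (-0.19 ± 0.09).

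Imprinted and histone genes held some of the larger differences. Of the 23 measured genes on the imprinted list 3 were higher and 6 lower without overlap (13.0% and 26.1%, median -0.032). Over all genes 13.3% were higher and 11.4% lower. The 23 include Nckap1, which is not an imprinted gene and may have been matched through a synonym. Cdkn1c, the cell cycle inhibitor p57, had 27.81, 20.15 and 36.66 FPKM in KO, against 40.01 and 44.47 FPKM in WT (-0.60 ± 0.19), and Plagl1, a zinc finger factor, had 3.96, 7.18 and 4.48 FPKM in KO, against 3.5 and 2.99 FPKM in WT. Among 29 replication-dependent histone genes 5 were higher and 4 lower. Hist1h2ao had 61.87, 77.78 and 130.0 FPKM in KO, against 171.42 and 166.59 FPKM in WT (-0.97 ± 0.24). Hist2h2ac had 1.06, 2.21 and 0.97 FPKM in KO and was listed at 0 in both WT libraries. Most of these transcripts lack a poly(A) tail and many are near-identical copies, so their values in poly(A)-selected RNA are uncertain.

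Only 16 genes differed by 1 or more on the log2 scale, 13 higher and 3 lower in KO, and several of them also differed widely between libraries of one genotype. Of the 13 higher genes 7 had KO libraries above both WT libraries: Eif2s3y, Tmem254b, Gm4027, Zscan4f, Hist2h2ac, Gm14305 and Hist1h2bj. Rps27rt, a near-identical relative of Rps27, had 13.69, 27.58 and 0 FPKM in KO and was listed at 0 in both WT libraries, and Cd99 had 5.33, 29.41 and 6.03 FPKM in KO against 6.3 and 0.85 FPKM in WT. The pair Gm21312 and Gm20765 shared the same values in every library. The 3 lower genes were Mettl5, Tmem254c and Rsc1a1, which had 1.5, 2.62 and 0.0 FPKM in KO against 2.98 and 5.69 FPKM in WT.

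Eif2s3y, a Y-linked gene for a subunit of translation initiation factor 2, had the largest difference whose libraries did not overlap. It had 22.89, 32.07 and 28.08 FPKM in KO, against 11.52 and 0.21 FPKM in WT (2.87 ± 0.74, adjusted p = 0.364). WT replicate 2 was near 0, and the same held in EBs, with 42.24, 52.83 and 47.64 FPKM in KO against 23.94 and 1.25 FPKM in WT, and in N2B27, with 23.39, 28.72 and 23.59 FPKM in KO against 15.59 and 0.56 FPKM in WT. Its X-linked homologue Eif2s3x averaged 127.3 FPKM in KO and 134.0 FPKM in WT ES cells. Other Y-linked genes did not follow the genotype. Ddx3y, an RNA helicase, had 0.05, 0.11 and 0.07 FPKM in KO, against 1.52 and 0.01 FPKM in WT. Uty, a histone demethylase relative, had 0.02, 1.25 and 0.02 FPKM in KO, against 0.68 and 0.0 FPKM in WT. WT replicate 1 was thus the only ES cell library with more than 1 FPKM of Ddx3y, and KO replicate 2 the only one for Uty. In the other cultures too, Ddx3y reached 2.0 (EBs) and 2.09 FPKM (N2B27) in WT replicate 1 and was at most 0.4 FPKM elsewhere. Libraries of one genotype therefore differed in Y-linked transcripts in a way that recurred by replicate number across the 3 cultures. Their part in the other differences was not tested.

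**Figure D4:**
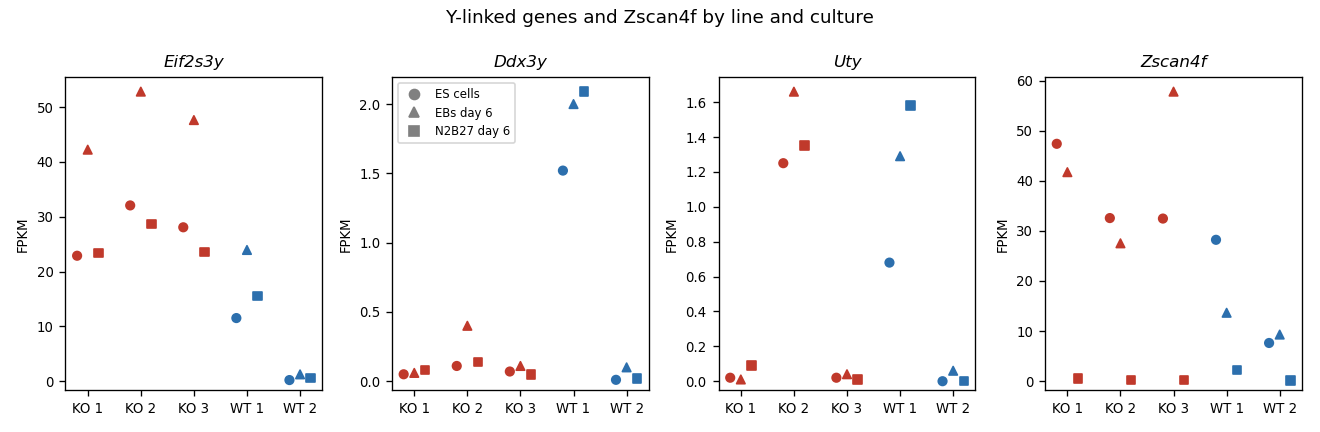
FPKM of the Y-linked genes Eif2s3y, Ddx3y and Uty and of the two-cell-like gene Zscan4f by replicate (horizontal axis, KO left and WT right) in ES cells, EBs and N2B27 (circles, triangles and squares). Eif2s3y is at 1.25 FPKM or less in every WT replicate 2 library, Ddx3y is highest in WT replicate 1, and Uty is high in KO replicate 2 and WT replicate 1.

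Genes of the two-cell-like state had the largest median difference of any list with 2 or more measured genes, and WT replicate 2 stood apart from the other libraries. Of 12 measured genes 5 were higher without overlap and none lower (41.7%, median 0.574), and 8 had an unadjusted p under 0.05 in limma. Over all genes 13.3% were higher and 11.4% lower without overlap, and 4.69% were higher at an unadjusted p under 0.05. The 12 include 4 Zscan4 copies, so they are not separate observations. Zscan4f, a telomere-associated zinc finger protein gene, had 47.38, 32.56 and 32.46 FPKM in KO, against 28.22 and 7.63 FPKM in WT (1.25 ± 0.41, adjusted p = 0.47). The 4 measured Zscan4 copies, which share fragments, summed to 96.1, 69.8 and 64.8 FPKM in KO, against 63.1 and 18.1 FPKM in WT. KO replicates 2 and 3 were thus close to WT replicate 1, and WT replicate 2 was far below. Gm5662 had 5.81, 6.28 and 4.35 FPKM in KO, against 4.24 and 1.03 FPKM in WT, in the same pattern. Without WT replicate 1, 10 of the 12 genes were higher in all KO libraries, and without WT replicate 2, 5 were higher and 1 lower. Over all genes 32.3% were higher without WT replicate 1 and 26.9% without WT replicate 2. The list's median was 1.093 without WT replicate 1 and 0.177 without WT replicate 2. In the bulk RNA, more cells in this state and more RNA per such cell cannot be told apart. The Zscan4 sum was also higher in KO EBs, at 82.6, 53 and 111 FPKM against 25.9 and 17.9 FPKM in WT EBs, and near 0 in N2B27.

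A cluster of copied genes on chromosome 14, chosen after its values were seen, held further differences in which WT replicate 2 stood apart. Tmem254b had 17.84, 19.93 and 17.86 FPKM in KO, against 16.15 and 0.97 FPKM in WT, while its copy Tmem254c had 0.87, 0.0 and 1.49 FPKM in KO, against 1.75 and 23.16 FPKM in WT. The 3 Tmem254 copies together had 18.9, 20.2 and 19.6 FPKM in KO, against 18.4 and 24.4 FPKM in WT. Likewise Cphx1 had 4.44, 3.86 and 4.37 FPKM in KO, against 4.21 and 0 FPKM in WT, and Cphx2 was at 0 in all but WT replicate 2, where it had 4.4 FPKM. The Cphx sum was 4.44, 3.86 and 4.37 FPKM in KO and 4.21 and 4.42 FPKM in WT. The Plac9 copies of the same cluster summed to 21.7, 20.7 and 21.7 FPKM in KO, against 13.9 and 22.2 FPKM in WT, so that in this family the sum also differed between the WT libraries. In EBs Tmem254b was at 45.12, 32.99 and 50.93 FPKM in KO and 32.66 and 34.62 FPKM in WT.

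To see which ES cell differences recurred, the 33 genes named by rank besides Mettl5 were looked up in the other cultures, whose libraries did not choose them but carry the same replicate names. None passed the adjusted threshold there, where 0.1% of all genes did in EBs and 0% in N2B27. Of the 18 genes higher in ES cells 17 were tested in EBs; 6 had KO libraries above both WT libraries (8.15% of all genes in EBs did) and 1 had them below. They were Thy1, Arhgap9, Eif2s3y, Zscan4f, Gm4027 and Gm5662. Zscan4f and Gm5662 are both on the two-cell-like list. For Eif2s3y, Zscan4f, Gm4027 and Gm5662, WT replicate 2 was the lowest library in ES cells and in EBs. The 6 genes are therefore not separate observations. Thy1 had 7.38, 11.48 and 10.72 FPKM in KO EBs, against 5.87 and 5.34 FPKM in WT EBs. All 15 lower genes were tested in EBs, where 1, Vim, was lower again without overlap (18.1% of all genes were) and 2 were higher. Vim had 121.78, 124.77 and 88.1 FPKM in KO EBs, against 162.19 and 218.52 FPKM in WT EBs (-0.77 ± 0.19, adjusted p = 0.22), but 625.49, 496.93 and 784.18 FPKM in KO against 451.42 and 564.57 FPKM in WT in N2B27.

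In N2B27, 12 of the 18 higher genes were tested and 3 were higher without overlap, Wfdc2, Card19 and Eif2s3y (8.87% of all genes were). Of the 14 lower genes tested 1 was lower without overlap, Mpc1, at 8.9, 6.68 and 8.85 FPKM in KO against 10.91 and 11.87 FPKM in WT (13.3% of all genes were). Over the 10415 genes tested in all 3 cultures, 30 (0.288%) had KO libraries above both WT libraries in each culture and 74 (0.711%) had them below. Besides Mettl5 and Eif2s3y, examples picked after their values were seen were Sox21, a neural progenitor SOX factor, with differences of -0.38 in ES cells, -0.91 in EBs and -0.81 in N2B27, and Slc17a7, a vesicular glutamate transporter, with 0.32, 0.68 and 0.44. Sox21 had 2.39, 2.24 and 2.89 FPKM in KO ES cells, against 3.07 and 4.06 FPKM in WT ES cells.

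**Figure D5:**
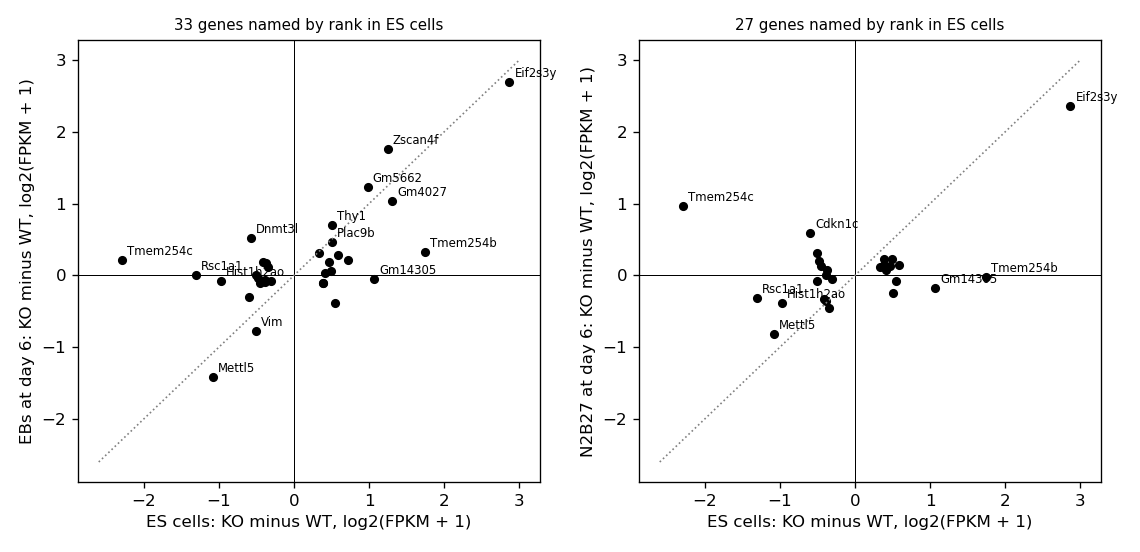
Difference KO minus WT on the log2(FPKM + 1) scale in EBs (left) and N2B27 (right) against that in ES cells, 1 point per gene named by rank in ES cells, Mettl5 included, with a dotted line of equal values. Mettl5 and Eif2s3y lie near that line in both panels, while Tmem254c, at -2.29 in ES cells, is at 0.22 in EBs and 0.96 in N2B27.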

How the data were processed

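The authors deposited 1 table of FPKM values for 15 libraries of polyadenylated RNA, with FPKM named per the file headers. The submitters' processing notes name Bowtie2, RSEM and mm10. No version, annotation, strand setting or depth is given in the sources used here. Because RSEM estimates how ambiguous fragments divide between transcripts, values of near-identical copies depend on it. Symbols turned into dates (27) were restored from Entrez IDs, and 2 genes had no symbol. Positions come from RefSeq GRCm38.p6 (18713 IDs matched) and exons from GENCODE.

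The 3 KO and 2 WT ES cell libraries were fitted with limma 3.58.1 (R 4.3.3), with a mean-variance trend, on the log2 of FPKM plus 1, for genes that reached an FPKM of 1 in 2 or more of the 5, with Benjamini-Hochberg adjustment at 0.05. Such differences understate changes of low genes. The fit was tested on simulated data. EBs and N2B27 were fitted likewise. Libraries did not overlap where all KO values were above, or all below, both WT values. Errors are SE.

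Members and the 37 gene lists were chosen with earlier results of these data known. Named genes were 8 set genes, up to 12 per direction by smallest p and up to 6 by largest difference among genes with non-overlapping libraries and a mean FPKM of at least 2, up to 2 per list and direction, 8 neighbours of Mettl5, 4 genes farthest apart between WT libraries and the 6 most abundant. Other list members, copied genes, the further Y-linked genes, genes found in 3 cultures and the promoter motifs were picked after their values were seen. Alternatives were a pseudocount of 0.1, no filter, an FPKM of at least 5, TPM and median-ratio scaling, all 15 libraries in 1 fit without and with the line as a block, no trend, and leaving out each library.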

Additional observations from a re-analysis of the deposited data

Results flagged for a closer look

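Some of the named results had KO libraries on one side of both WT libraries in ES cells and on the other side in another culture. The difference between the cultures was not tested in any of them, and none passed the adjusted threshold in limma. In EBs, Dnmt3l (0.52 in EBs, -0.57 in ES cells), Egr1 (0.25 and -0.54), Dnmt3a (0.31 and -0.24), Fgf4 (0.52 and -0.08), Epcam (0.50 and -0.07), Tmem254c (0.22 and -2.29) and the germline genes Syce1 (0.79 and -0.10) and Mael (1.08 and -0.14) were higher in KO and lower in KO ES cells. Id3 (-0.64 in EBs, 0.52 in ES cells), Fn1 (-0.49 and 0.22), Dynlt1f (-0.38 and 0.55) and Igf2bp3 (-0.28 and 0.14) were lower in KO EBs and higher in KO ES cells. Dnmt3l had 44.06, 35.75 and 49.38 FPKM in KO EBs, against 33.63 and 25.66 FPKM in WT EBs. Id3 had 70.22, 43.78 and 41.65 FPKM in KO EBs, against 71.82 and 86.95 FPKM in WT EBs.

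In N2B27, BC028528 (0.20), Dnmt3a (0.12) and Cth (0.31) were higher in KO, against -0.48, -0.24 and -0.16 in ES cells. Cebpb (-0.45), Eef2k (-0.16) and Gnl2 (-0.09) were lower in KO in N2B27, against 0.23, 0.26 and 0.08 in ES cells.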

How the results depend on the processing

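No gene passed the adjusted threshold in ES cells under any of the 8 other settings that kept all 5 libraries. Leaving out each library gave 0 to 21 genes: 21 without WT replicate 1, among them Eif2s3y, 4 Zscan4 copies, Tmem254b, Vim and Upp1, 2 without WT replicate 2 (Dnmt3l and Klhl13), 3 without KO replicate 1 (Mettl5, Gm21312 and Gm20765), 0 without KO replicate 2 and 2 without KO replicate 3 (Rps27rt and Hist1h2ao). The lone WT library is then assumed to vary like KO. The 526 genes higher at an unadjusted p under 0.05 became 322 with an FPKM of at least 5 and 267 with all 15 libraries fitted (377 to 592 without each library), and the 373 lower became 600 without a filter and 160 with all 15 libraries (271 to 472). With the line as a replicate block the counts were also 267 and 160 and the estimated correlation was 0.00145. Replicate numbers are not stated to pair KO and WT libraries. Mettl5 stayed between -1.20 and -0.95 without each library. Of the ES-ranked genes, 1 (Vim) passed in EBs with all 15 libraries, with or without the block, 0 to 4 without each EB library, and 0 to 1 without each N2B27 library. Differences near 0 changed sign when 1 library was left out: Trmt112 (-0.17 to 0.06), Pou5f1 (-0.11 to 0.08), Nanog (-0.00 to 0.02), Fbxw7 (-0.12 to 0.00), Ppig (-0.18 to 0.13), Phospho2 (-0.08 to 0.20), Klhl23 (-0.07 to 0.11), Ssb (-0.11 to 0.05), Ubr3 (-0.04 to 0.18), Gorasp2 (-0.07 to 0.04), Tlk1 (-0.17 to 0.01), Gapdh (-0.04 to 0.13), Ptma (-0.02 to 0.06) and Rps2 (-0.06 to 0.10). So did Gm4340, at -0.34 with all libraries (-1.82 to 1.14). List medians changed sign only where they were within 0.06 of 0, including both ribosomal protein lists without WT replicate 1 (-0.041 and -0.056). No named gene changed sign under another scaling. The causes were not tested.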

Other observations

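The most abundant transcript was Eef1a1, elongation factor 1A, with 6831.87, 6656.74 and 6703.43 FPKM in KO and 6274.08 and 6544.85 FPKM in WT ES cells. Germline genes had a median difference of 0.074, with 3 of 24 higher and 2 lower without overlap. Over all genes tested, 13.3% were higher and 11.4% lower. In the gap junction, cytoskeleton and adhesion list 3 of 24 genes were higher and 6 lower (median -0.003). Gja1 (connexin 43) had 4.55, 4.69 and 4.66 FPKM in KO, against 7.97 and 5.73 FPKM in WT (-0.46 ± 0.12, SE). The neural progenitor list had 1 of 7 genes higher, Msi1, and 3 lower, Vim, Sox21 and Sox11 (median -0.054). The primitive streak list had 2 measured genes, 1 higher and 1 lower, and none of 3 mesoderm and vascular genes stood apart. Klhl13, an X-linked substrate adaptor gene picked after its values were seen, had 3.8, 3.26 and 3.83 FPKM in KO, against 9.27 and 3.76 FPKM in WT, with WT replicate 1 apart from the other libraries.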
